A study of Mus musculus with 1086 samples.

Results

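CAST/EiJ (CAST) is a wild-derived inbred strain and 1 of the 8 founder strains of the Diversity Outbred mouse stock. The livers of 16 CAST males were compared with those of the other 7 founder strains, 129S1/SvImJ (129S1), A/J (AJ), C57BL/6J (B6), NOD/ShiLtJ (NOD), NZO/HILtJ (NZO), PWK/PhJ (PWK) and WSB/EiJ (WSB). The CAST animals were chosen by their strain label, 16 of 128 founder males, and no measured value entered that choice. Of the other males 110 were used. A B6 and a NOD animal whose labels were probably exchanged were left out of every comparison.

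All animals were males of inbred strains with no transgene named in the labels, 26 weeks old (20 weeks for NZO), and each strain had 8 animals on chow and 8 on a high fat diet before the 2 were left out. The labels describe the founder diets in 2 ways, as 17% against 45% of kcal from fat (the richer one with 34% sucrose by weight) and as 6% against 22% fat by weight, and the animals' actual feed cannot be read from that. Livers were snap frozen, and mRNA was sequenced from 1 end in reads of 100 bases, 1 library per animal. Values are given in count equivalents, which are the authors' normalized signal times 1 constant, so that a value is near the number of reads in a library of ordinary depth.

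The liver takes up, modifies and exports drugs, steroids and bile acids. Oxidation by cytochromes P450 is commonly followed by conjugation with glucuronic acid (UGT enzymes), sulfate (SULT enzymes) or glutathione (GST enzymes). It also makes cholesterol, fatty acids and most plasma proteins. Many of these genes differ between male and female mouse liver under the pattern of growth hormone release, and others are induced by interferons, the cytokines of antiviral defence. CAST and PWK, which descend from other house mouse subspecies, carry many more sequence differences from the B6 reference genome than classical laboratory strains do.

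The gene that set CAST apart by the widest margin on the log2 scale was Sult3a1 (ENSMUSG00000069668), a sulfotransferase that is female-biased in mouse liver. The sequences before the start sites of Sult3a1 and of its neighbour Sult3a2 (ENSMUSG00000090298) are shown because both genes were far higher in every CAST animal than in any animal of the other strains. They are the B6 reference sequences of RefSeq on GRCm38.p6, 5′ to 3′ on the strand of the gene, 250 bases up to the start. Capitals mark matches to TTCNNNGAA, the core that STAT5 proteins recognize, searched on both strands (the motif is its own reverse complement). That motif is in 7.02% of the 32851 RefSeq promoter windows of this length. Sult3a1, chr10:33857472-33857721, plus strand, holds 1 match, and Sult3a2, chr10:33782116-33782365, minus strand, holds 0.
Sult3a1: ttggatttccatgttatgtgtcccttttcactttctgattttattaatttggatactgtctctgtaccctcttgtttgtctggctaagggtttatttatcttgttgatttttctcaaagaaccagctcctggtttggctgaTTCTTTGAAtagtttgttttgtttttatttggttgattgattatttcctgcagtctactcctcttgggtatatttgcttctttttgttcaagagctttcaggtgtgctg
Sult3a2: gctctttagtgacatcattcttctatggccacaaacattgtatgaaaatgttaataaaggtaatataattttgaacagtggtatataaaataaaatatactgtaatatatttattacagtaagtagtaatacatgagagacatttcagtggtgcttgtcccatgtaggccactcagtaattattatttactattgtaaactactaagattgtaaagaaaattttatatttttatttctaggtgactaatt

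Before the results, 4 features of the libraries need stating. Recovered totals were 6.46 to 14.1 in CAST (mean 8.78) and 5.87 to 13.4 in the others (mean 8.53), in units of 1e6 reads, and each of the 8 sequencing lanes held 1 CAST animal per diet. Over 2000 genes lay more than 2-fold from the median of their own group in 6 animals, among them CAST animals 11568 (chow) and 10288 (high fat); the other CAST animals had 607 to 1232 such genes. The 4 CAST animals numbered 11259 or above (2 per diet) did not overlap the other 12 in 23 genes that were higher and 43 that were lower in the 4, together 0.489% of the 13496 genes tested. This split was chosen after the values were seen, and the share that another 4 animals would give was not tested. In 9 of those the gap between the sets exceeded 1 on the log2 scale, all 9 higher in the 4 animals. Among these were the neighbouring immunity-related GTPase genes Iigp1 and F830016B08Rik and the nearby Gm4951, and Obp2a, Camk1d, Bmyc and Itih5, which lie on 1 other chromosome of the GRCm38 annotation. The pseudogenes Rpl17-ps10 and Pgam1-ps2, on yet another chromosome, were also among the 9, with gaps of 3.74 and 3.42. What sets these 4 animals apart was not tested.

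The fourth feature concerned neighbouring genes. Along most of 1 chromosome, from Eml6 to Metrnl, CAST was low at gene after gene. The stretch held 950 of the 1077 tested genes of that chromosome. Of the 950 tested genes in that stretch, 702 (73.9%) were lower and 12% higher in CAST than in the mean of the others, and the median difference was -0.624 (log2) against 0.023 for the 12546 genes outside it. The median over these genes, each set against its mean over all animals, was -0.644 to -0.351 in every one of the 16 CAST animals and 0.037 to 0.178 in the 110 others, so the groups did not overlap. The stretch was found in these same values, in windows of 41 neighbouring genes. Its low median and this separation therefore follow in part from that choice. Several ribosomal protein genes in the stretch were low in CAST while a pseudogene copy of the same gene was high. Rpl19 averaged 30.2 count equivalents in CAST and 1141 in the others, and its pseudogene Rpl19-ps11 averaged 1254 and 17.9, so the sums (1284 and 1159) were close. For Rpl27 with Rpl27-ps3 the sums were 591 and 599, and for Rpl38 with Rpl38-ps2 they were 403 and 421. For Rpl23a with Rpl23a-ps3 they were not close, at 487 in CAST and 952 in the others. Such pairs were not limited to the stretch. Outside it Rps18 averaged 179 in CAST and 1122 in the others, against 1014 and 236 for Rps18-ps3, and Rps2 averaged 769 and 2667, against 2390 and 537 for Rps2-ps13. Rps18 was lower in CAST than in each of the 7 strains, but Rps18-ps3, Rps2 and Rps2-ps13 did not differ from each in the same direction. Rpl10a went the other way, at 1151 in CAST and 582 in the others, against 85.85 and 563 for Rpl10a-ps1. Reads of such near-identical copies can be assigned to either. The founder values used were deposited as aligned to strain genomes. The part of read assignment, or of the genome used for each strain, in the whole stretch was not tested. Named genes of the stretch are marked as such below, and where a list holds any, its counts are also given without them.

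**Figure D1:**
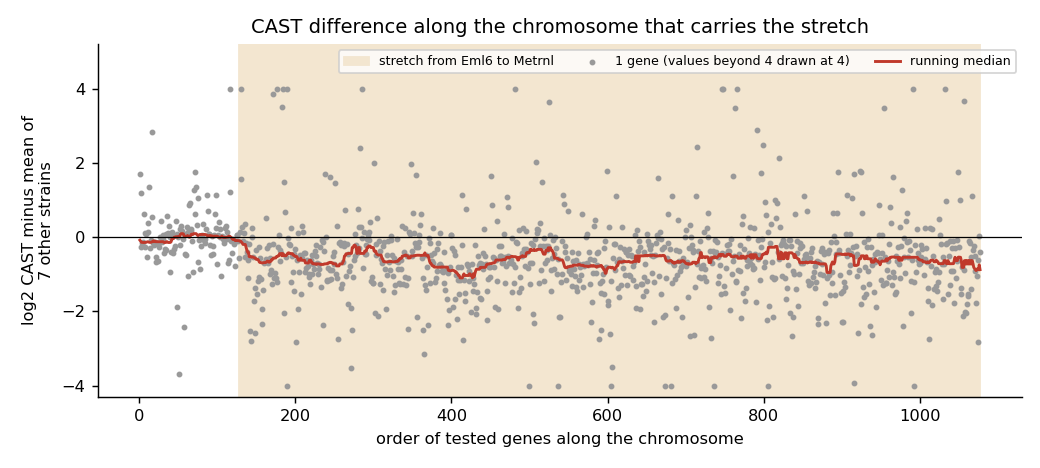
Log2 difference between CAST and the mean of the other 7 strains (y axis) for each tested gene in chromosomal order (x axis), with the running median in red and the stretch from Eml6 to Metrnl shaded. The running median is near 0 before the stretch and stays below 0 through it, where the median over 950 genes was -0.624.

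Most genes tested differed between CAST and the mean of the other 7 strains. Of 13496 genes with enough signal, 8624 (63.9%) passed an adjusted p of 0.05 in limma, of which 4391 (32.5% of all tested) were higher and 4233 (31.4%) lower in CAST. More than 2-fold differences were seen in 931 genes that were higher and 1056 that were lower. A stricter count took the genes in which CAST differed from each of the 7 strains in the same direction, called apart from here on. These were 2176 genes (16.1%), 1063 higher (7.88%) and 1113 lower (8.25%). In 160 genes every CAST animal lay above all 110 others (1.19%), and in 128 every CAST animal lay below them (0.948%). Without the genes of the stretch, a refit called 7790 genes (4265 higher, 3525 lower), 1664 apart (1019 higher, 645 lower), and 1.3% of the genes had no overlap, 14 of them lower and the others higher.

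The same counts for each other strain against its own 7 comparators give a scale. PWK, also wild-derived, had 1579 apart genes and no overlap in 0.83% of genes, and WSB had 873 and 0.222%. The 5 classical strains had 297 to 504 apart genes and no overlap in 0.0593 to 0.133%, against 2.13% for CAST. Set against single strains, CAST differed from PWK in 7707 genes and from WSB in 7490, and from the classical strains in 7964 to 8207. CAST was therefore past the threshold in fewer genes against the other wild-derived strains than against each classical one, a difference between counts that was not tested. CAST had the highest mean of the 8 strains in 2718 genes and the lowest in 2487.

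The sulfotransferase genes Sult3a1 and Sult3a2 had the 2 largest differences on the log2 scale of all genes tested. Sult3a1 was at 7010.4, 11848 and 17747 count equivalents in CAST (lowest, median and highest animal, the order used throughout) and at 0, 3.02 and 106.4 in the others. Sult3a2 was at 991, 1960.1 and 3553 in CAST and at 0, 0.444 and 7.9 in the others. For both, every CAST animal on either diet lay far above every animal of the other strains, and the highest of the others in Sult3a1 was an NZO animal on high fat. The differences on the log2(x + 1) scale, which understates changes of genes near 0, were 11.48 ± 0.27 (SE) for Sult3a1 (adjusted p = 5.73e-70) and 10.33 ± 0.19 for Sult3a2 (adjusted p = 2.44e-81). The family was not high as a whole. Of its 10 tested members 3 were higher and 5 lower in CAST, where 32.5% and 31.4% of all genes were, with a median of -0.804 against 0.005 over all genes. Sult1b1, which sulfates thyroid hormone and phenols, was at 14.8, 28.2 and 95.8 in CAST and 68.7, 223 and 525 in the others (-2.91 ± 0.10), and Sult1d1, which acts on catecholamines, differed by -2.35 ± 0.18. Both groups of animals overlapped in these 2 genes.

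Ugt1a10, a UGT1 isoform best known from the gut, was at 625, 1496 and 2389 in CAST and at 0, 12.5 and 60.9 in the others, with no overlap (7.13 ± 0.25, adjusted p = 2.52e-52). Isoforms of the UGT1 locus share their last exons, so the split of reads between them is uncertain. Among 19 tested UGT genes 10 were higher and 6 lower (median 0.23), against 32.5% and 31.4% of all genes. The share that was lower was near that of all genes. Ugt2b37 was also apart and higher (4.36 ± 0.26). Ugt3a2 went the other way (-2.48 ± 0.071), but WSB was as low as CAST, with medians of 188 and 238, so it was not apart.

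Of 23 tested glutathione transferase genes 12 were higher and 9 lower (median 0.433), against 32.5% and 31.4% of all genes. Of the 23, 7 were apart and higher and 2 apart and lower, against 7.88% and 8.25% of all genes. Mgst2, a microsomal member that also makes leukotriene C4, was at 14.6, 164.7 and 265 in CAST and at 0, 0 and 104.04 in the others (5.89 ± 0.17). PWK was the next strain, with a median of 27.7, and its range overlapped that of CAST. Gstp3 was at 708, 1578 and 3650.4 in CAST and at 0.921, 70.1 and 184 in the others, with no overlap (4.69 ± 0.13). Gstt1, of the theta class that metabolizes small halogenated compounds, was apart and lower, at 16, 45.8 and 626 against 259, 871 and 1622 (-3.80 ± 0.15). Of the CAST animals, 11583 at 414 and 11274 at 626 were high and the other 14 were at 76.9 or less. Gstm2 was higher by 2.43.

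Among 43 tested P450 genes of families 1 to 3, 23 were higher (53.5%) and 14 lower (32.6%), against 32.5% and 31.4% of all genes (median 0.317). Of the 43, 4 were apart and higher, where 7.88% of all genes were. Cyp2c69, a female-biased member, was at 19.4, 582 and 3141 in CAST and at 0, 2.13 and 158.8 in the others (6.93 ± 0.36). CAST animals ranged over 2 orders of magnitude, and the lowest overlapped the others. Cyp3a25 was at 7842, 15339 and 19461 in CAST and at 727, 2884 and 7237 in the others, with no overlap (2.38 ± 0.097). Several large differences were shared with PWK. Cyp2c40 was 5.29 above the mean of the 7 but 0.29 from PWK, and Cyp2c23 was 2.52 above the mean but 0.10 from PWK. Cyp2d11 was 5.09 above the mean and yet below PWK (-1.28). Akr1c18, which inactivates progesterone, showed the same pattern, with medians of 747 in CAST, 748 in PWK, 293 in NZO and 1.34 in WSB.

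Carboxylesterases, which cleave ester drugs and lipids, split by gene. Of 15, 4 were higher and 8 lower (median -0.258), against 32.5% and 31.4% of all genes. Ces2b was at 172.5, 617 and 1223 in CAST and at 0, 6.75 and 138.6 in the others, without overlap (6.00 ± 0.24). Ces1b was apart and higher (2.48 ± 0.085) and Ces1e apart and lower (-2.54 ± 0.13). Ces2h was 4.40 above the mean, but PWK and WSB had higher medians (547 and 549) than CAST (316). Hsd17b2, which oxidizes estradiol and testosterone to less active forms, was at 2502, 3280.1 and 4809 in CAST and at 264, 673 and 1524 in the others, without overlap (2.25 ± 0.083). Among organic anion carriers of the SLC22 family, Slc22a28 was higher without overlap (3.29 ± 0.15) and Slc22a30 was lower (-3.33 ± 0.14). Families with close copies, as these P450, UGT, Ces and GST genes are, can trade reads between members, and their single values carry that uncertainty.

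**Figure D2:**
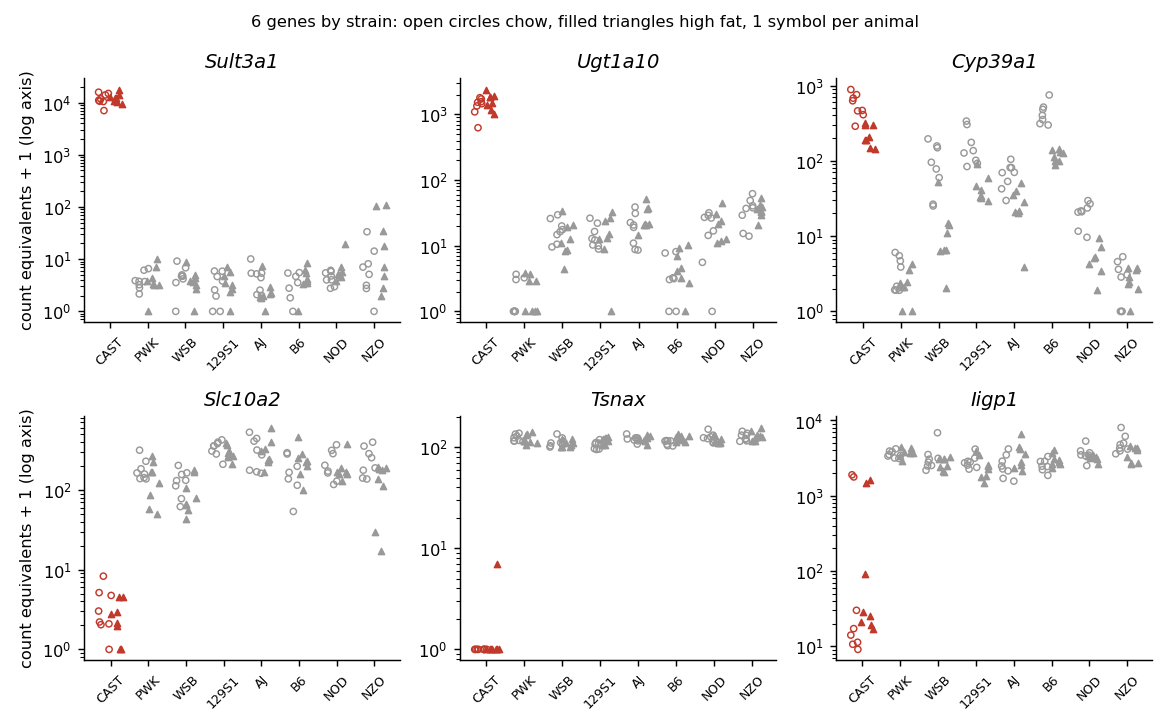
Count equivalents plus 1 (y axis, log scale) of 6 genes in each animal by strain (x axis), with CAST in red, chow as open circles and high fat as filled triangles. Sult3a1 and Ugt1a10 show CAST above all others, Slc10a2 and Tsnax below all others, and Iigp1 shows 4 CAST animals at 1487 to 1896 and 12 at 89.9 or less.

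All animals were males. Of 20 genes known as male-biased in mouse liver 13 were higher and 3 lower in CAST (median 0.92), against 32.5% and 31.4% of all genes tested. Of 23 known as female-biased 11 were higher and 6 lower (median 0.396). Moxd1, a male-biased monooxygenase-like gene, was at 3366, 7029 and 8539 in CAST and at 0, 8.26 and 5067 in the others (7.58 ± 0.41). PWK followed with a median of 1712, and 129S1 was lowest at 2.98. C6, a male-biased component of the complement attack complex, was at 7779, 16161 and 26967 in CAST and at 636, 2913 and 7293 in the others, without overlap (2.55 ± 0.096). Ugt2b38 was higher than the mean (3.38 ± 0.25) but not than PWK (-0.48). Cyp3a16, a female-biased P450, was at 1.23, 31 and 243 in CAST and at 0, 0 and 4.36 in the others (4.17 ± 0.22).

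The major urinary proteins are pheromone carriers made in liver from a cluster of very similar genes, so reads may be divided among them in ways that differ by strain. Of 17 tested, 8 were higher and 6 lower in CAST (median 0.373), against 32.5% and 31.4% of all genes. Mup20, known as darcin, a male signal that attracts females, was at 32.2, 62.5 and 13325 in CAST and at 384, 12081 and 98644 in the others (-6.51 ± 0.23, adjusted p = 1.23e-50). A single CAST animal, 11259 on high fat, gave the highest value, and the other 15 were at 404 or less, below the lowest strain median of the others (641 in AJ). Mup2 was lower as well (-5.66 ± 0.23), and Mup10 was lower than the mean (-2.80 ± 0.15) but near PWK (0.08). Mup18 was at 76189.6, 105632 and 229527 in CAST and at 66.8, 573 and 539360.2 in the others (5.62 ± 0.15), with PWK higher still at a median of 296288.

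Igf1, the circulating growth factor, was at 4314, 5497 and 8279 in CAST and at 2349, 4557 and 8173 in the others (0.32 ± 0.071, adjusted p = 5.85e-05). Under quantile normalization the value was 0.19. Ghr, the growth hormone receptor, was lower (-0.29 ± 0.069). The groups overlapped in both genes, and neither passed a test against a fold of 1.2 (adjusted p = 0.524 and 0.739). Of 18 genes of growth hormone and insulin-like growth factor action 5 were higher and 3 lower, where 32.5% and 31.4% of all genes were, and outside the stretch, which holds 4 of them, 5 of 14 were higher and 2 lower. Igfbp3 (0.92 ± 0.11), Igfbp2 (0.88 ± 0.16) and Igfals (0.68 ± 0.13), which bind or carry IGF1 in plasma, were higher, and Prlr, the prolactin receptor, was lower (-0.65 ± 0.14).

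Uptake and export of bile acids differed at single transporters. Slc10a2, which takes bile acids up across the apical membrane in ileum and bile duct cells, was at 0, 1.5 and 7.28 in CAST and at 15.9, 185 and 604 in the others, with no overlap (-6.15 ± 0.19, adjusted p = 6.18e-57). Of 6 tested markers of bile duct cells 4 were lower and 1 higher, against 31.4% and 32.5% of all genes. Outside the stretch 2 of the 3 were lower and 1 higher. The summed level of the markers was 180 to 578 in CAST and 188 to 1996 in the others. Their part in the Slc10a2 value was not tested, and in whole tissue fewer cells of a type and less RNA per cell cannot be told apart. Abcc3, the basolateral export pump, was at 8.09, 25.6 and 85.9 against 40.0, 707 and 2663 (-4.06 ± 0.15), and it lies in the stretch.

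Of the enzymes of bile acid synthesis, Cyp39a1, Cyp7b1 and Cyp7a1 were higher in CAST. Cyp39a1, which hydroxylates 24-hydroxycholesterol, was at 143.02, 310.1 and 884 in CAST and at 0, 21.6 and 747 in the others (4.13 ± 0.21). CAST and B6 overlapped on chow, and NZO and PWK were close to 0. Cyp7b1, of the alternative pathway, was higher (1.92 ± 0.16), and so was Cyp7a1, the rate-limiting enzyme of the classical pathway (1.73 ± 0.46, adjusted p = 0.000623). Cyp7a1 ranged widely, at 183, 1304 and 5220.0 in CAST and at 5.44, 391.8 and 3158 in the others, and AJ had a higher median (1758) than CAST (1304). Of 30 bile acid genes 12 were higher and 9 lower, with a median of 0.042, and outside the stretch 12 of 29 were higher and 8 lower. Over all genes 32.5% were higher and 31.4% lower, and 34.1% and 28.1% outside the stretch. Abcb11, the bile salt export pump, differed by 0.20 ± 0.075 (adjusted p = 0.0172), a call lost under 3 other settings (adjusted p 0.0764 to 1). Of the sterol export pair, Abcg8 was higher (0.70 ± 0.12) and Abcg5 did not pass (-0.04 ± 0.12, adjusted p = 0.812).

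Cholesterol synthesis genes were low in CAST. Of 23 tested, 15 were lower (31.4% of all genes were) and the other 8 did not pass, with a median of -0.657, and none of the 23 lies in the stretch. Pmvk, of the mevalonate pathway, was at 13.7, 31.9 and 103.5 in CAST and at 29.8, 104.1 and 346 in the others (-1.62 ± 0.15, adjusted p = 2.48e-18). Msmo1 (-1.52 ± 0.22) and Fdps (-1.44 ± 0.21) followed, and Hsd17b7 was apart and lower (-0.88 ± 0.11). Against single strains the picture varied. Fdps was -1.91 from PWK and 0.15 from WSB, whose median of 143.1 was near that of CAST (120.5).

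For fatty acid synthesis, the best known genes lie in the stretch. Acly was at 132.5, 237 and 490.2 in CAST and at 421, 1063 and 6760.3 in the others (-2.19 ± 0.15). Fasn (-1.81 ± 0.16), Acaca (-1.37 ± 0.13) and Srebf1, the transcription factor of this pathway (-1.27 ± 0.16), were lower as well. Of all tested genes in the stretch 73.9% were lower too. Of 22 genes of the list 5 were higher and 11 lower, against 32.5% and 31.4% of all genes. Outside the stretch 5 of 18 were higher and 7 lower, with a median of 0.039, close to that of all genes outside (0.023). Mlxipl, the carbohydrate response factor, was apart and higher (1.23 ± 0.098). Among genes of glucose handling, Insr, the insulin receptor gene, differed by -0.41 and Pygl, the glycogen phosphorylase gene, by -0.46. Tkfc, a fructose enzyme gene, differed by -0.58, and all passed the threshold. The CAST median in Tkfc (1953) was above those of PWK (1502) and WSB (1308). Over the list 4 of 22 were higher and 9 lower, against 32.5% and 31.4% of all genes, or 4 and 9 of 21 outside the stretch.

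Fatty acid oxidation gave 15 of 28 genes lower and 5 higher (median -0.394), against 31.4% and 32.5% of all genes. Outside the stretch 13 of 26 were lower. Acadvl, for very long chains, was lower without overlap (-2.77 ± 0.046) and lies in the stretch. Acadm, for medium chains, lies outside and was apart and lower (-0.68 ± 0.067). Cyp4a14 and Vnn1, both induced by PPARα, were lower than the mean (-4.02 ± 0.48 and -2.63 ± 0.23) but not apart, since PWK was about as low, with medians of 3.58 and 10.2. Of 14 lipid droplet genes 9 were lower and 1 higher (median -0.555), against 31.4% and 32.5% of all genes. Fitm1, which packages triglyceride into droplets, was at 0, 0.748 and 2.96 in CAST and at 0, 43.9 and 332 in the others, apart and lower (-4.48 ± 0.16). Plin3 (-0.67 ± 0.075) and Mogat1 (-1.60 ± 0.20) were lower. Mogat1 was at 0 in 13 of 16 CAST animals and 12 of 16 PWK animals, and NZO (30.7) and B6 (9.30) had the highest medians. Pnpla2, the lipase ATGL, was the higher member (0.82 ± 0.11). Lipoprotein genes were divided, 8 of 28 higher and 13 lower (8 and 12 of 27 outside the stretch), against 32.5% and 31.4% of all genes. Apon (0.91 ± 0.063), Apoc2 (0.61 ± 0.077) and Lipc (0.53 ± 0.087) were higher. Apoa2 was lower (-0.32 ± 0.067, not past a test against a fold of 1.2, adjusted p = 0.467).

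**Figure D3:**
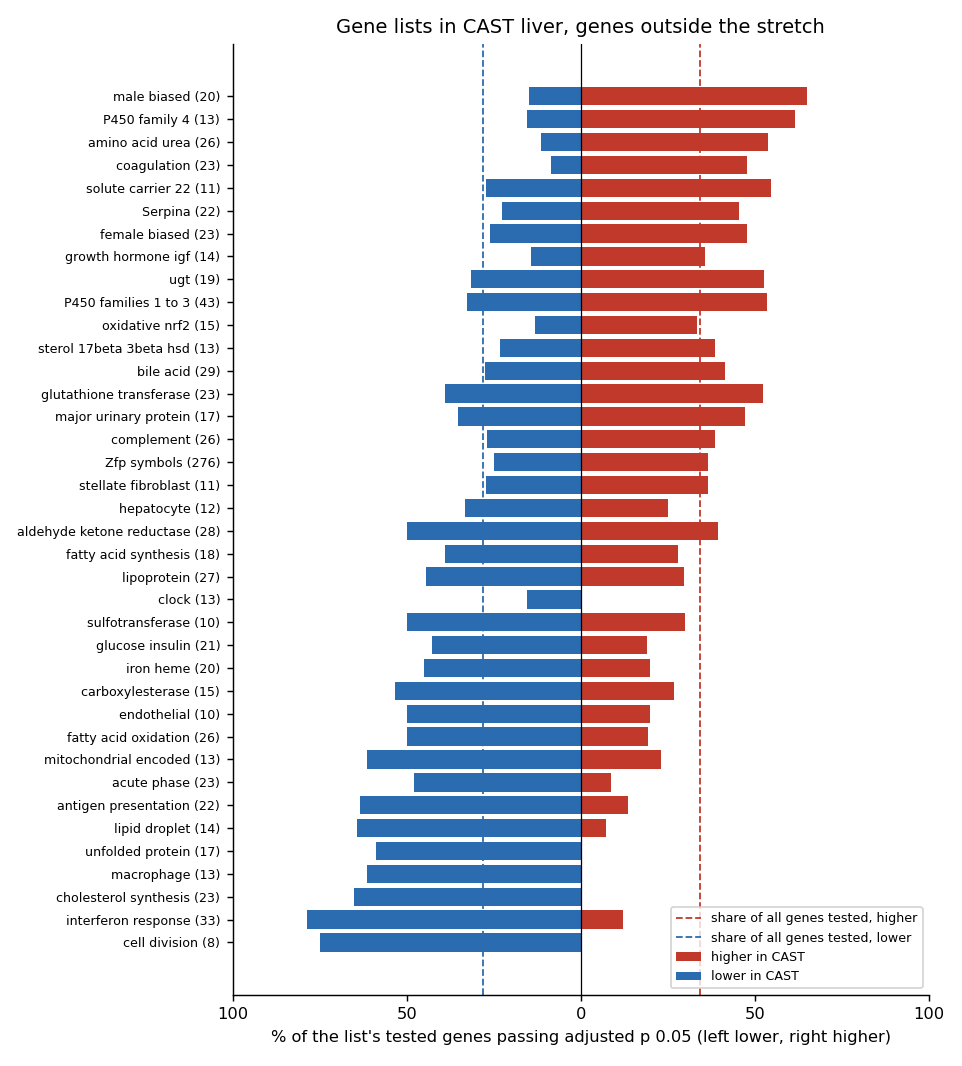
Share of each list's tested genes, outside the stretch, that were higher (right) or lower (left) in CAST at adjusted p 0.05, with the number of genes in brackets, for lists of 8 or more. Dashed lines give the share over all 12546 genes outside the stretch, 34.1% higher and 28.1% lower, and the bars for interferon response (78.8%), cell division (75%) and cholesterol synthesis (65.2%) reach furthest to the left.

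Interferon-response genes were low in CAST. Of 37 tested, 30 were lower and 4 higher, against 31.4% and 32.5% of all genes, with a median of -0.946. Of the 37, 16 were apart and lower, where 8.25% of all genes were. Outside the stretch 26 of 33 were lower. Irf7, the factor that amplifies the interferon response, was at 10.6, 24.7 and 55.1 in CAST and at 60.6, 188 and 875 in the others, with no overlap (-2.85 ± 0.15, adjusted p = 1.32e-36). NZO had the highest median among the strains in Irf7, Isg15 and Ifi44. Isg15, a ubiquitin-like modifier, was at 0, 5.68 and 28.6 against 7.68, 50.8 and 487 (-2.91 ± 0.23), and Ifi44 was at 0, 1.33 and 4.04 against 1.07, 30.8 and 155.3 (-3.77 ± 0.20). Most CAST animals lay below the medians of the other strains in Isg15 and Ifi44, where the groups overlapped.

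Promoters of interferon-response genes often hold a common motif, and 4 are shown as examples, all from members with small p that were lower in CAST. Capitals mark 2 copies of GAAA with any 2 bases between them, the core of the interferon-stimulated response element, searched on both strands, in windows of the B6 reference (RefSeq, GRCm38.p6) that reach up to 30 bases either side of the matches within the 250 bases before the start, 5′ to 3′ on the strand of the gene. Overlapping matches run together. The motif was in 17 of the 26 tested members with a promoter entry (65.4%), in 14 of the 22 of those that were lower, and in 2.98% of all 32851 promoter windows. Positions are chr11:58199492-58199555 (plus strand) for Igtp, chr4:156200845-156200926 (minus) for Isg15, chr3:142530253-142530322 (plus) for Gbp7 and chr12:26456533-26456602 (minus) for Rsad2. The sequence in CAST was not analysed here.
Igtp: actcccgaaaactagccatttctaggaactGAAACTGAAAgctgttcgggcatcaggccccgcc
Isg15: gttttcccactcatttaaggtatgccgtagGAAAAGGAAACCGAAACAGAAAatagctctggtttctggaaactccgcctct
Gbp7: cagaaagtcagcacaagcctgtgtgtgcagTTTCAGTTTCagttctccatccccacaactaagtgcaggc
Rsad2: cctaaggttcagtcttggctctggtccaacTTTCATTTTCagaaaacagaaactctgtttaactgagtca

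The genes shown differed by -2.49 ± 0.16 (Igtp, in the stretch), -2.02 ± 0.17 (Gbp7) and -1.87 ± 0.17 (Rsad2). Igtp and Gbp7 encode GTPases that act on vacuoles of intracellular pathogens, and Rsad2 encodes viperin, an antiviral enzyme. Iigp1, of the same GTPase class as Igtp, was at 8.09, 22.2 and 1896 in CAST and at 1497, 3134 and 8062 in the others (-5.70 ± 0.30). The 4 CAST animals numbered 11259 or above were at 1487 to 1896 and the other 12 at 8.09 to 89.9. Without those 4 the difference was -7.31. F830016B08Rik (-2.60 ± 0.27) and Gm4951 (-1.84 ± 0.18), its neighbours, were split between the same animals, and without the 4 their differences were -3.88 and -2.80.

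Not all antiviral genes were low. Apobec3, which restricts retroviruses, was apart and higher, at 76.9, 138.8 and 296 in CAST and at 10.6, 28.5 and 163.1 in the others (2.08 ± 0.12). Mx2 was higher than the mean of the others (2.54 ± 0.19) but lower than PWK (-1.19), and Mx1 was lower (-0.82 ± 0.24, adjusted p = 0.00153), with a value of -0.55 under array weights. The CAST median in Mx1 (9.83) was above those of 129S1, AJ, NOD and WSB, and NZO (118.1) and PWK (61.1) were far higher. Oas1b, the flavivirus resistance gene, did not pass (-0.23 ± 0.16, adjusted p = 0.207). Of 22 genes of antigen presentation 14 were lower and 3 higher (median -0.37), against 31.4% and 32.5% of all genes. H2-T22 (-1.43) and H2-Q10 (-0.72) were lower. These genes differ in sequence and number between mouse strains, and the NOD median in H2-T22 (89.9) was below that of CAST (102.8).

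**Figure D4:**
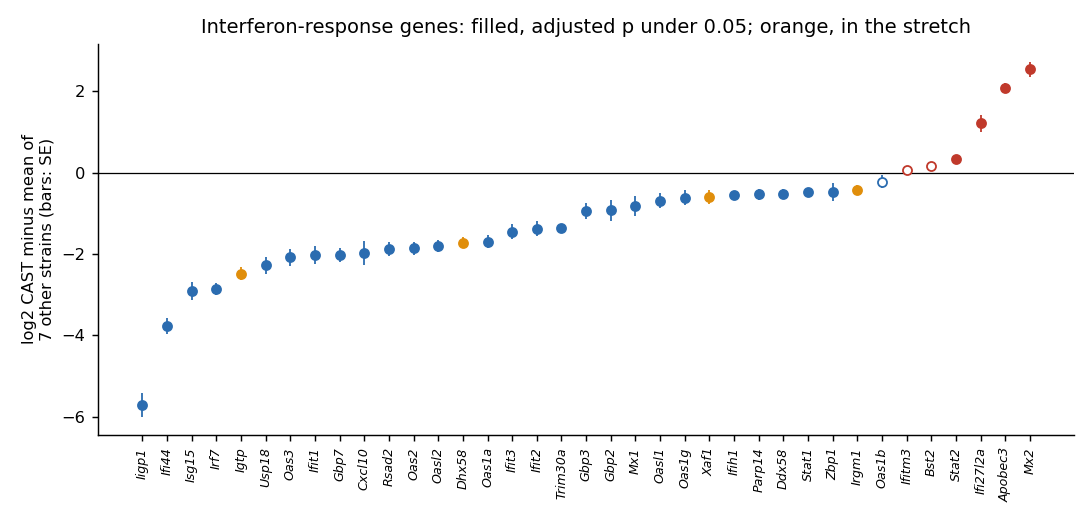
Log2 difference between CAST and the mean of the other 7 strains (y axis, bars SE) for the 37 interferon-response genes in order of value (x axis). Filled symbols passed adjusted p 0.05, orange marks the genes in the stretch, and 30 genes lie below 0 and passed, from Iigp1 at -5.70, while 4 passed above 0, up to Mx2 at 2.54.

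Of 15 tested macrophage markers 10 were lower and the other 5 did not pass (median -0.509), where 31.4% of all genes were lower, and outside the stretch 8 of 13 were lower. Their summed level was 922 to 3801 in CAST and 910 to 7263 in the others, with 0 of the 15 at 0 throughout in either group. Adgre1, which encodes F4/80, was at 27.4, 55.9 and 127.4 in CAST and at 29.3, 125.7 and 634 in the others (-1.14 ± 0.14), and WSB had a similar median (54.2). Cd68 (-1.66 ± 0.11) and Timd4 (-1.10 ± 0.16) were lower and lie in the stretch, and Lgals3 was apart and lower (-1.04 ± 0.17). The part of macrophage content in the interferon values was not tested. Lymphocyte markers summed to 16 to 69.1 in CAST and 13.9 to 239 in the others, and neutrophil markers to 8.48 to 145.6 and 5.79 to 526.

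Acute phase proteins, made by hepatocytes in inflammation, were lower in 11 of 23 tested genes and higher in 2 (median -0.331). The shares over all genes were 31.4% and 32.5%. Lcn2, which binds bacterial iron carriers, was at 18.3, 214 and 5037 in CAST and at 34.7, 2585 and 30264 in the others (-3.23 ± 0.50). It varied over 2 orders of magnitude in both groups. Saa4, a constitutive serum amyloid, was steadier, at 1596, 2664 and 4498 against 2464, 9543 and 13729.6, apart and lower (-1.68 ± 0.085). Apcs (-2.14 ± 0.25) and Orm3 (-1.51 ± 0.27) were lower. Complement genes were 10 of 27 higher and 8 lower (10 and 7 of 26 outside the stretch), near the 32.5% and 31.4% of all genes. C8b, of the attack complex like C6, was at 4493, 7894 and 10832 in CAST and at 159.1, 1887 and 4209 in the others, with no overlap (2.01 ± 0.11). Hc, which encodes C5, was higher (0.60 ± 0.069), and Vtn, in the stretch, was lower (-0.82 ± 0.059).

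Red cell transcripts were low, with 6 of 6 tested genes lower, where 31.4% of all genes were. The stretch holds 3 of them, Hba-a1, Hba-a2 and Slc4a1, and the 3 outside it were lower too. Their summed level was 438 to 3640 in CAST and 769 to 12821 in the others. Alas2, the erythroid enzyme of heme synthesis, was at 49.2, 77.4 and 444 in CAST and at 40.4, 749 and 1856 in the others (-2.62 ± 0.12), and PWK was also low at a median of 111.96. Hba-a1 (-2.52 ± 0.23) lies in the stretch and Hbb-bt (-1.44 ± 0.24) does not. Both belong to globin genes with near-identical copies. Hepatocyte markers were 3 of 12 higher and 4 lower (median -0.04), near the 32.5% and 31.4% of all genes, and all 12 were above 0 in both groups.

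The serine protease inhibitors of the Serpina family, secreted by hepatocytes, were 10 of 22 higher and 5 lower (median 0.25). The shares over all genes were 32.5% and 31.4%. Serpina7, the thyroxine carrier of plasma, was at 1.14, 20.8 and 56.6 in CAST and at 22.2, 578 and 2177 in the others, apart and lower (-4.44 ± 0.23). Serpina1a, an α1-antitrypsin with close copies, was apart and lower too (-2.29 ± 0.07), while Serpina3b was apart and higher (3.03 ± 0.18). Genes of the unfolded protein response were lower in 11 of 18, where 31.4% of all genes were, and the other 7 did not pass (median -0.481). Outside the stretch 10 of 17 were lower. Canx, a chaperone in the stretch, was lower without overlap (-0.95 ± 0.036), and Pdia4 (-0.70 ± 0.14), Herpud1 (-0.64 ± 0.15) and Sdf2l1 (-0.95 ± 0.23) were lower.

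Genes of amino acid and urea metabolism were 14 of 27 higher and 4 lower (median 0.178), against 32.5% and 31.4% of all genes. Outside the stretch 14 and 3 of 26 were. Oat, ornithine aminotransferase, was at 5696, 10228 and 15882 in CAST and at 1422, 4028 and 18743 in the others (1.36 ± 0.13). Agxt, which detoxifies glyoxylate, was apart and lower (-1.12 ± 0.093), as was Fah, the last enzyme of tyrosine breakdown (-0.54 ± 0.049), and Nags, in the stretch (-0.58 ± 0.059). Of 10 genes of cell division 7 were lower and the other 3 did not pass, where 31.4% of all genes were lower, and outside the stretch 6 of 8 were lower. Ccnd1 was lower (-1.66), and Top2a, in the stretch, was at 0, 2.23 and 15.2 against 2.17, 10.6 and 87. Mitochondrially encoded transcripts were 8 of 13 lower and 3 higher, against 31.4% and 32.5% of all genes. mt-Nd3 was at 1078, 1307 and 3116 in CAST and 696, 3942 and 7379.7 in the others (-1.38 ± 0.061), with a lower median in PWK (1085). mt-Nd1 (-0.78 ± 0.054) and mt-Co1 (-0.76 ± 0.058) were lower as well. The PWK median was also below that of CAST in mt-Nd1 (12612.5 against 14238.9) and was above it in mt-Co1 (103761 against 86451). Nnt, the mitochondrial transhydrogenase that B6 lacks in full-length form, was lower than the mean (-0.31 ± 0.053, not past a test against a fold of 1.2, adjusted p = 0.472) but above the B6 median (595 against 387). Glo1, glyoxalase 1, did not pass (0.12 ± 0.058, adjusted p = 0.073), but without the 4 CAST animals numbered 11259 or above it did (0.15, adjusted p = 0.0358 in limma).

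Several genes were present in CAST livers and all but absent elsewhere. Gsdma3, a pore-forming gasdermin known from skin, was at 81.5, 196 and 275 in CAST and at 0, 0 and 1.64 in the others (7.33 ± 0.091, adjusted p = 2.85e-99). It lies in the stretch and was among the 12% of genes there that were higher. D7Ertd443e was at 18.7, 75.6 and 143.4 against 0, 0 and 1.59 (5.94 ± 0.11), and Cdh23, a cadherin of hair cell tip links in the ear, at 8.31, 89.8 and 199 against 0, 0 and 3.69 (5.80 ± 0.20). Neither overlapped. Defb1, a β-defensin, was at 77.9, 386 and 879 against 0, 3.71 and 22.2 with no overlap (6.16 ± 0.25). Tas1r1, a taste receptor subunit, was at 0.985, 391 and 1539.9 against 0, 2.18 and 10.8 (6.20 ± 0.33), and CAST animals 11259 and 11274 lay within the range of the other strains. Zfp141 (1.97 ± 0.078) and Zfp872 (3.99 ± 0.17), zinc finger genes, were apart and higher, but their ranges overlapped those of the others. Zfp141 was not absent elsewhere, with a median of 69.84 in the others.

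Others were at or near 0 in most CAST libraries. Tsnax (ENSMUSG00000056820), the partner of the RNA- and DNA-binding protein translin, was at 0, 0 and 5.93 in CAST and at 93.8, 116.1 and 155.3 in the others (-6.71 ± 0.073, adjusted p = 3.49e-105). The 1 CAST animal above 5 was 11274, and the 7 other strains were close to each other, with medians from 108.3 (WSB) to 126.3 (NZO). Rarres1, a retinoid-responsive gene, was at 0, 1.58 and 509.6 in CAST and at 77.6, 363 and 2162 in the others (-6.57 ± 0.29). CAST animals 11583 and 11568 overlapped the others, and the rest were at 3.78 or less. Adgrv1, an adhesion receptor, was at 0, 2.05 and 4.68 against 8.03, 126.9 and 638, without overlap (-5.23 ± 0.20). Fam213b, a prostaglandin F synthase (-5.50 ± 0.19), and Apol9a, of the apolipoprotein L family (-5.30 ± 0.24), were apart and lower. In Fam213b CAST animals 11259 and 11274 were at 38.4 and 25.6 and all other CAST animals at 1.04 or less. In Apol9a CAST animals 11568, 11274 and 11583 were at 90.6 to 109.9 and the other 13 at 9.435 or less, below every animal of the other strains. Wfdc17 (-5.94 ± 0.11) and Afmid, the kynurenine formamidase (-5.21 ± 0.16), were lower without overlap and lie in the stretch. So do 9 of the 10 genes without overlap that had the smallest p (predicted genes and pseudogenes left out), among them Rpl19 (-5.24 ± 0.046), Rpl23a (-4.19 ± 0.047), Rpl38 (-3.94 ± 0.048), Rpl27 (-4.60 ± 0.069), Rpl23 (-2.70 ± 0.037), Tbcd (-2.82 ± 0.048) and Flii (-1.95 ± 0.035). Tsnax was the exception.

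A second stretch of neighbours was high in CAST. Between Ctsz and Adrm1, 37 of 53 tested genes were higher and 6 lower, with a median of 1.534, and 22 were apart and higher (41.5%, against 7.88% of all genes). As it was found in these same values, its share is raised by that choice. Shorter stretches that were higher were found from Cox7a2 to Mthfs (29 tested genes) and from Taf2 to Tatdn1 (20). The stretch from Ctsz to Adrm1 holds 39 genes with Zfp or Gm symbols, of which 32 were higher. Of all 53 tested genes there 37 were higher, and of all genes tested 32.5% were. The 7 with Zfp symbols encode zinc finger proteins of a large repeated family. Zfp970 was at 2220.3, 4589.8 and 6404 in CAST and at 194, 460.3 and 1921 in the others (2.92 ± 0.13), and Zfp971 was at 142.6, 285 and 487 against 17.9, 40.5 and 87.2 (2.63 ± 0.11), both without overlap. Zfp968 was apart and higher (3.51 ± 0.15). Copies in such a cluster are alike, and which copy a read belongs to is uncertain. Over 276 tested genes with a Zfp number outside the stretch from Eml6 to Metrnl, 36.6% were higher and 25% lower (median 0.027). Of all genes outside it 34.1% and 28.1% were.

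The difference from the other strains was mostly the same on both diets. On chow 7081 genes passed and on high fat 6926, and 5436 passed on both in the same direction against 13 in opposite directions. The change from chow to high fat differed between CAST and the mean of the others in 1.01% of genes, 45 with a more positive and 91 with a more negative change in CAST. Without the 6 animals that stood apart from their groups it was 1.64% (62 more positive, the rest more negative). Within CAST the diets differed in 181 genes.

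In 4 of the 6 genes named for this difference, CAST was higher on high fat. Wfdc12, a small secreted protein of the whey acidic family, was at 4.68, 7.77 and 17.5 on chow and at 20.7, 96.3 and 265 on high fat in CAST, and it changed by 3.21 there and by -0.40 in the others (difference 3.61 ± 0.48, adjusted p = 1.07e-07). Cadm4, a cell adhesion molecule, was at 0, 2.94 and 7.62 and at 5.39, 13.6 and 54.8 (difference 2.47 ± 0.40). Cyp2c67, a P450, was at 524, 941 and 1956 and at 959, 3174 and 5368 (difference 1.77 ± 0.23). Slc39a4, a zinc importer, gave a difference of 1.36 ± 0.22 (adjusted p = 2.44e-05). The diets did not overlap within CAST in Wfdc12 and overlapped in the other 3 genes.

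The other two went down in CAST. Slc16a7, the monocarboxylate carrier MCT2, was at 42.2, 71.4 and 240.2 on chow and at 23.2, 41.8 and 49 on high fat, a change of -1.05 against 0.42 in the others (difference -1.47 ± 0.23, adjusted p = 1.36e-05). Rcan2, a calcineurin regulator, changed by -1.54 against 0.49 (difference -2.04 ± 0.32, adjusted p = 1.36e-05). The mean of the 7 rose in both, and the diets overlapped within CAST.

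**Figure D5:**
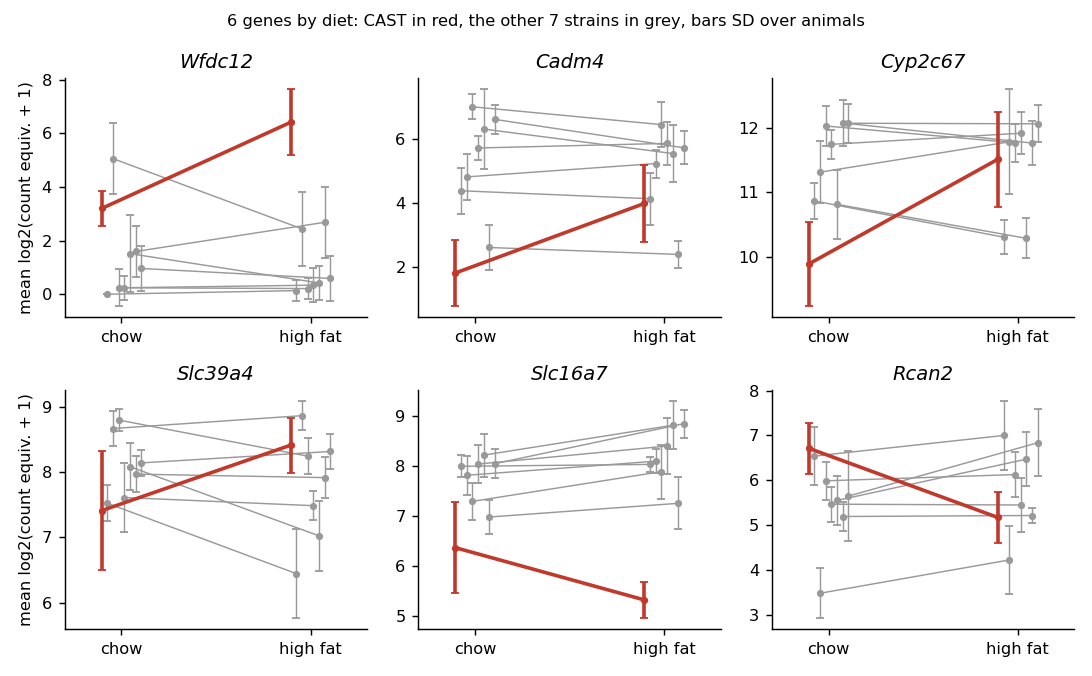
Mean log2(count equivalents + 1) on chow and on high fat (x axis) of the 6 genes with the smallest p for a diet change that differs in CAST, with bars giving the SD over animals. CAST is red and the other 7 strains are grey, and the red line rises in 4 genes and falls in Slc16a7 and Rcan2.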

How the data were processed

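Liver RNA of 128 founder males was read through a table of 24965 genes, of which 22760 took a symbol from GENCODE M21. The authors deposited a normalized signal per gene, scaled so that the upper quartile of each library is 1. Per the submitters' processing notes the tools included CASAVA 1.8.0, Bowtie 0.12.8 and RSEM 1.2.1 with NCBIM37 (mm9). By their deposited name, the founder values used here came from samples aligned to strain genomes. Below a value of 20.5, 82.6% of the rescaled values were whole within 0.1 (80.4 to 84.5% per library), so they were not treated as counts. The deposited signal was multiplied by 113.265 to give count equivalents. Depth recovered from the step between values was 5.87 to 14.1 (in units of 1e6 reads) per library, which limits precision at low values.

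Genes with 10 or more count equivalents in 8 or more animals were tested (13496). Log2(count equivalents + 1) was fitted with limma 3.58.1 (limma-trend) in R 4.3.3 on 126 animals with 16 strain by diet means. CAST was set against the mean of the 7 other strains over both diets, against each strain, and for diet dependence, with Benjamini-Hochberg adjustment over all genes tested and a threshold of 0.05. The labels give separate animals, so p-values measure the spread between animals. A B6 and a NOD animal were left out as probably exchanged. The procedure was tested on simulated data.

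Named genes were, from those apart from all 7 strains with 50 or more count equivalents on the higher side, the 12 with the biggest rise and the 12 with the biggest fall, the 4 smallest p of each list, the 6 smallest p for diet dependence, 14 fixed genes, and the 10 smallest p among genes without overlap. A few named genes are not reported here. Predicted genes and pseudogenes were left out except from the lists and the fixed genes. Rpl19-ps11 and the other pseudogenes, Iigp1's neighbours, Obp2a, Camk1d, Bmyc and Itih5 were chosen after their values were seen. Igtp, Gbp7 and Rsad2 were chosen for their promoters. The members and the lists were chosen with earlier results of these data known. Stretches of neighbours were found in these same values, in windows of 41 genes, and had 20 genes or more. Gene order was that of GENCODE M21 (GRCm38), not the authors' build. No coordinate of GRCm38 is given except with the RefSeq promoter sequences. Alternatives covered scaling, filter, pseudocount, model, fold threshold, single animals and strains.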

Additional observations from a re-analysis of the deposited data

Results flagged for a closer look

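Within the 8 CAST animals of a diet, 56 of 302 gene and diet pairs had an animal far from the rest by Dixon's criterion. For independent normal values chance gives about 1 in 20, but that rate does not apply to these pairs. They share the same animals, and a gene at 0 in all but a lone animal is flagged whatever the value. Tsnax on high fat, where animal 11274 alone was above 0, is such a case. Values are in count equivalents, with the animal highest or lowest of its 8. On high fat, animal 11274 was highest in Sult1d1 (831), Gstt1 (626), Tsnax (5.93) and Apol9a (109.7). It was lowest in Mgst2 (29.8), Cyp2d11 (168.98), Cyp3a25 (7842), Ces2h (194), Cdh23 (14.9) and Slc39a4 (176). Animal 11259 was highest in Mup2 (6245), Mup20 (13325), Mup10 (101200), Slc22a30 (933), Cyp4a14 (103.4), Prlr (539) and Obp2a (754). Animal 10288, which stood apart over many genes, was highest in Acadvl (691), Cyp7b1 (21605), Apoa2 (50318), Apoc2 (4837), Lipc (2376), Igfals (1291), mt-Nd3 (3116), Rpl19-ps11 (2462), Rpl38 (36.1) and Rpl23 (322). Animal 10403 was lowest in Serpina7 (1.14), and animal 10467 was highest in Wfdc17 (1.17) and lowest in Cyp2c67 (959).

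On chow, animal 11568, which also stood apart, was lowest in Ugt3a2 (79.5), Mlxipl (1670), Acaca (164.5), Lgals3 (1.46), Igfals (380) and Glo1 (2208) and highest in Alas2 (444). Animal 11583 was highest in Serpina1a (28297), Slc22a30 (627) and Ccnd1 (264) and lowest in Mx2 (24.9), C8b (4493) and Rpl27 (4.79). Animal 10273 was lowest in Ugt1a10 (625), Hsd17b2 (2502), Apoa2 (17790), Lipc (430), Igfbp2 (642) and mt-Nd3 (1152) and highest in Vtn (15716) and Hc (13051). Animal 10373 was highest in Mogat1 (0.936) and Prlr (698), 10303 in Oas1b (16.2), 10318 in Fam213b (1.04), and 10258 was lowest in Rpl23a (29.9).

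The change from chow to high fat in CAST differed from that in the mean of the others in 16 of the genes described, each past an adjusted p of 0.05 for the difference itself. Over all genes tested the share was 1.01%, and 6 of the 16 (Wfdc12, Cyp2c67, Slc16a7, Rcan2, Cadm4 and Slc39a4) were named for their small p in this test. On the log2 scale, CAST minus the others, the difference was positive in Wfdc12 (3.61), Cadm4 (2.47), Cyp3a16 (2.35), Mup20 (2.10), Cyp2c67 (1.77), Slc39a4 (1.36) and C6 (0.914). The Mup20 value includes animal 11259 at 13325 on high fat, where the CAST median was 108.7, against 47.8 on chow. The difference was negative in Rarres1 (-2.16), Rcan2 (-2.04), Vnn1 (-1.81), Adgrv1 (-1.72), Fitm1 (-1.57), Mogat1 (-1.56), Sult1d1 (-1.48), Slc16a7 (-1.47) and Abcc3 (-1.08). A negative value need not be a fall in CAST. Mean log2 values in CAST on chow and high fat were 3.31 and 3.29 in Vnn1 and 1.56 and 1.44 in Adgrv1. They were 0.119 and 0.261 in Mogat1 and 4.83 and 4.88 in Abcc3. These 4 genes were low in CAST on both diets and hardly changed there, whereas Sult1d1 went from 8.17 to 6.89.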

How the results depend on the processing

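No reported direction reversed under any alternative that was run. A test against a fold of 1.2 left 4255 genes for CAST against the mean of the 7, 1096 apart from all 7, 3482 on chow, 3479 on high fat, 4060 against PWK and 3874 against WSB. Genes whose difference depends on diet made up 0.878% of those tested with no filter on low values, where more genes were tested, and 1.64% without the 6 animals that stood apart, against 1.01%. Genes without overlap made up 1.19% with no filter, where more genes were tested, and 1.3% without the stretch, against 2.13%. Leaving out the 6 animals and leaving out the stretch were chosen after seeing the data, as were leaving out the 2 CAST animals that stood apart and the 4 numbered 11259 or above.

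Leaving out each CAST animal in turn gave 8436 to 8606 genes against the mean, 2115 to 2230 apart, 6623 to 7246 on chow, 6574 to 6977 on high fat, 7571 to 7700 against PWK, 7319 to 7481 against WSB, 0.749 to 1.19% of genes for diet and 2.13 to 2.56% without overlap. Without the 4 animals numbered 11259 or above, Rcan2 passed (0.48, adjusted p = 0.0156 in limma), as it did under array weights (0.36, adjusted p = 0.0436), and Obp2a and Camk1d were at -2.92 and -3.60 in place of -1.18 and -2.71. A pseudocount of 5 shrank the difference of 11 low genes by over 1.5 times, among them D7Ertd443e (3.78), Wfdc17 (-3.76) and Ifi44 (-2.44). The cause was not tested beyond what each setting changes. No paired analysis was possible because each replicate number belongs to 1 animal. With sequencing lane in the model 8625 genes differed from the mean.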
